A study of Arabidopsis thaliana with 6 samples.

Results

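The *SPL* genes (*SQUAMOSA PROMOTER BINDING PROTEIN-LIKE*) described here are 10 Arabidopsis loci whose transcripts are known targets of the microRNA miR156. They were chosen by locus: *SPL2*, *SPL3*, *SPL4*, *SPL5*, *SPL9*, *SPL10*, *SPL11*, *SPL13A*, *SPL13B* and *SPL15*. Array probes were assigned to them through the transcript accession each probe carries, and 20 of the 43603 non-control probes matched, covering 9 of the 10 loci. *SPL13A* (AT5G50570) was matched by no probe. All 9 loci entered the test, out of 22681 genes tested in all.

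RNA came from whole *Arabidopsis thaliana* seedlings of ecotype Columbia-0 on 6 one-colour arrays, 3 of the wild type (WT) and 3 of *pgp1-2*, a mutant of *PGP1*, whose enzyme acts in making the chloroplast membrane lipid phosphatidylglycerol. Both groups grew in continuous light on agar with 3% sucrose. A first period at a photon flux of 30 µmol per square metre and second lasted 7 d for the wild type and 14 d for *pgp1-2*. A second period at 15 µmol lasted 7 d for both, which made the wild type 14 d and the mutant 21 d old. Genotype and age therefore cannot be told apart in any value below, and the last light conditions were shared. The labels do not say whether replicates were separate cultures or plants, so p-values measure the spread between these samples only.

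In textbook accounts of the age pathway, miR156 is abundant in young seedlings and lowers SPL proteins by transcript cleavage and by blocking translation. As the shoot ages miR156 declines, SPL proteins accumulate, and leaves take on adult form. SPL9 and SPL15 act in this vegetative change and in flowering, and SPL9 switches on *MIR172B*, whose product restrains the AP2-like repressors of flowering. SPL3, SPL4 and SPL5 are small proteins that act mainly on floral meristem identity. SPL2, SPL10 and SPL11 act in later shoot maturation and lateral organ shape, and SPL13 in the juvenile-to-adult change. The comparison thus asks whether transcripts of this timing system differ between the older mutant and the younger wild type.

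They differed in both directions and by small amounts. Of the 9 genes tested, 3 were called higher in *pgp1-2* (*SPL2*, *SPL3* and *SPL10*), 2 were called lower (*SPL11* and *SPL15*), and 4 were not called (*SPL4*, *SPL5*, *SPL9* and *SPL13B*). A gene is called when its adjusted p in limma, over all genes, is under 0.05. Over all genes tested, 52.4% were called, 27.9% higher and 24.5% lower, so 5 of 9 members (55.6%) is a share near the background. Of the 9, 6 had groups of arrays that did not overlap, 4 higher and 2 lower, and over all genes 64.2% did not overlap, 34.6% higher and 29.6% lower. No member was called with a log2 difference of 1 or more in either direction, whereas 7.01% of all genes were called higher and 8.05% lower by that much. The members' median log2 difference (*pgp1-2* minus wild type throughout) was 0.15, beside 0.034 for all genes. All 20 member probes were well above background on all 6 arrays, as were 66.3% of all probes, so that no member passed the filter on dim probes through 1 group alone.

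Signal at the 75th percentile ranged over the 6 arrays from 2620 to 3653, and values below are log2 values relative to it. Probes well above background made up 78.9% to 79.5% on slide 1, which held replicate 1 of each group, and 68.8% to 70.7% on slide 2, which held the others. *PGP1* (AT2G39290), the gene mutated in *pgp1-2*, was not well above background on any of the 3 mutant arrays. Its signal there was at least 226-fold below the wild type. *PGP1* passed the filter only through the wild type, so no p-value is given for it. How many of the called genes were higher depended on scaling, with 53.2% as reported, 42.2% after normexp background correction and 76.4% with arrays scaled to the spike-in probes. These alternatives shifted the median difference of all genes by -0.12 and 0.41.

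Among the small-protein genes, *SPL3* (AT2G33810, chromosome 2) had the largest difference among the members. Its log2 signal was -0.36, -0.26 and -0.27 on wild-type arrays 1, 2 and 3, and 1.16, -0.017 and 0.81 on the *pgp1-2* arrays in the same order. The groups did not overlap, but *pgp1-2* replicate 2 lay close to the wild type while replicates 1 and 3 lay well above it. The wild-type SD was 0.055 and the mutant SD 0.61 (n = 3 each), where the median gene had SDs of 0.099 and 0.12. *SPL3* rose by 0.95 on the log2 scale (standard error 0.29), a 1.93-fold change (limma adjusted p = 0.0334). A second *SPL3* probe gave 0.99 and was called too.

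The call for *SPL3* was a narrow one. It was lost when any 1 array other than *pgp1-2* replicate 2 was left out (log2 differences of 0.69 to 0.97, limma adjusted p of up to 0.0951), and without replicate 2 the difference was 1.29. Within slide 1, with 1 array per group, the difference was 1.53, and within slide 2 it was 0.66 (limma adjusted p = 0.162; the adjusted p over all alternatives ranged from 0.000136 to 0.162).

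*SPL4* (AT1G53160, chromosome 1), a close relative of *SPL3*, showed a similar arrangement of arrays. Its log2 signal was -1.24, -1.36 and -1.22 in the wild type and -0.46, -1.21 and -0.75 in *pgp1-2*. Again every mutant array lay above every wild-type array, with replicate 2 of the mutant nearly at the wild-type level. The log2 difference was 0.47 with a 95% interval of 0.011 to 0.92, and the gene was not called (limma adjusted p = 0.0792). Without *pgp1-2* replicate 2 it was 0.67 and called (limma adjusted p = 0.00881), and leaving out any other array gave no call, with the lowest difference, 0.29, without *pgp1-2* replicate 1. The within-slide differences were 0.78 and 0.31 (limma adjusted p over all alternatives 0.00177 to 0.264).

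*SPL5* (AT3G15270, chromosome 3), the third of these genes, gave -3.33, -3.58 and -3.07 in the wild type and -3.72, -4.13 and -3.54 in *pgp1-2*. The groups overlapped, since the highest mutant array lay above the lowest wild-type array. Its log2 difference of -0.47 (95% interval -0.94 to -0.0051) was not called (limma adjusted p = 0.0823) and had the opposite sign from those of *SPL3* and *SPL4*.

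**Figure D1:**
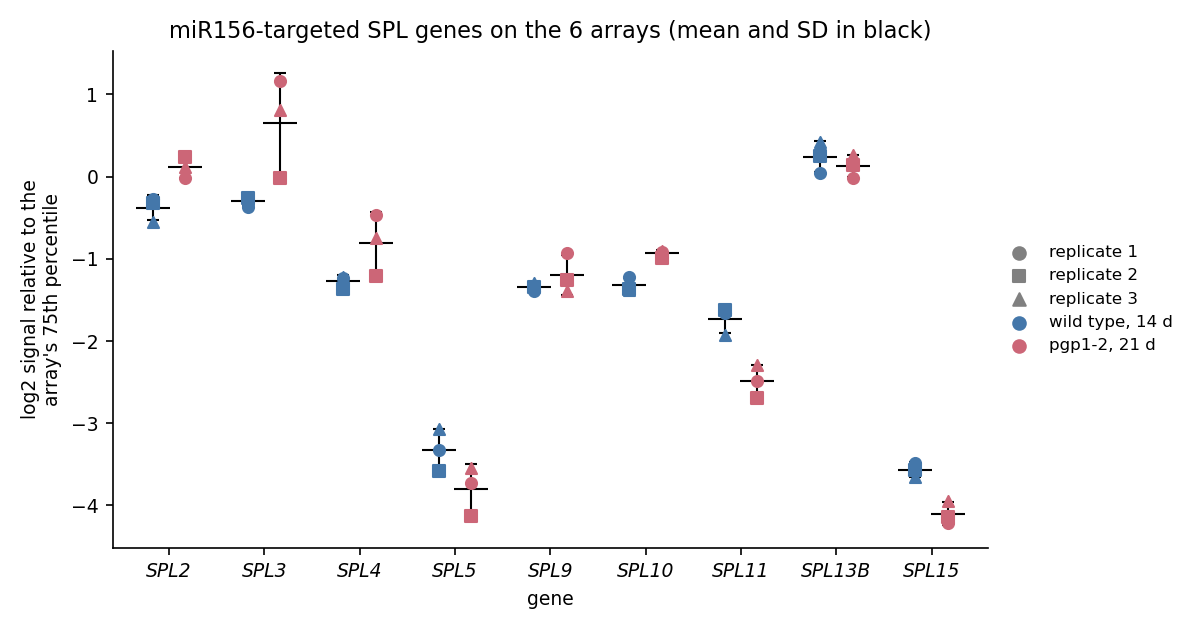
Log2 signal relative to each array's 75th percentile (vertical axis) of the 9 miR156-targeted *SPL* genes tested (horizontal axis) on 3 wild-type arrays (blue, 14 d) and 3 *pgp1-2* arrays (red, 21 d), with the mean and SD in black and a marker shape for each replicate. In *SPL3* the mutant arrays spread from -0.017 to 1.16 while the wild-type arrays lie between -0.36 and -0.26; heights of different genes come from different probes and are not comparable.

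*SPL9* (AT2G42200, chromosome 2), the member best known for opening the adult phase, gave no call. Its log2 signal was -1.39, -1.34 and -1.29 in the wild type and -0.93, -1.26 and -1.40 in *pgp1-2*. Replicate 1 of the mutant was the highest array and replicate 3 the lowest of all 6, so the groups overlapped fully. The log2 difference was 0.15 with a 95% interval of -0.16 to 0.45 (limma adjusted p = 0.372), an interval that spans both signs. It was 0.46 within slide 1 and -0.013 within slide 2.

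*SPL15* (AT3G57920, chromosome 3), the closest relative of *SPL9*, fell. Its log2 signal was -3.48, -3.56 and -3.66 in the wild type and -4.22, -4.13 and -3.94 in *pgp1-2*. All mutant arrays lay below all wild-type arrays. The log2 difference was -0.53 (standard error 0.096), a 1.45-fold decrease (limma adjusted p = 0.00524). With spike-in scaling the value was -0.12 and not called (limma adjusted p = 0.827; range over all alternatives 0.00424 to 0.827). The difference was -0.74 within slide 1 and -0.43 within slide 2, where the limma adjusted p was 0.0581.

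*SPL2* (AT5G43270, chromosome 5), of the shoot-maturation group, rose. Its log2 signal was -0.27, -0.32 and -0.55 in the wild type and -0.020, 0.24 and 0.12 in *pgp1-2*, without overlap. The log2 difference was 0.49 (standard error 0.11), a 1.41-fold change (limma adjusted p = 0.0109). The other *SPL2* probes gave 0.37 and 0.46, and both were called. Leaving out any 1 array kept the call, with differences of 0.41 to 0.56. The within-slide differences were 0.25 and 0.61. With spike-in scaling the value was 0.90 and missed the threshold (limma adjusted p = 0.0718; range over all alternatives 0.00128 to 0.0718).

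*SPL10* (AT1G27370) and *SPL11* (AT1G27360) are neighbours on chromosome 1, with 0 protein-coding genes between them. *SPL10* gave -1.22, -1.37 and -1.38 in the wild type and -0.92, -0.98 and -0.90 in *pgp1-2*. The mutant arrays were all higher and varied little. The rise was 0.39 on the log2 scale (standard error 0.073), or 1.31-fold (limma adjusted p = 0.00606), and the within-slide differences were 0.30 and 0.43. The *SPL10* probes did not all do this. Of its 4 probes, 2 were called higher, at 0.39 and 0.38. The other two, designed to other transcript accessions of the gene, gave -0.21 and 0.19 and were not called. With the mean of the 4 probes in place of the brightest, the difference was 0.19 and not called (limma adjusted p = 0.0696), and with spike-in scaling 0.80 and not called (0.119; range over all alternatives 0.00210 to 0.119).

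*SPL11* moved the other way. Its log2 signal was -1.66, -1.62 and -1.93 in the wild type and -2.48, -2.69 and -2.29 in *pgp1-2*. There was a gap between the groups. It fell by 0.75 on the log2 scale (standard error 0.13), a 1.69-fold decrease and the largest fall among the members (limma adjusted p = 0.00494). All 3 *SPL11* probes were called lower, at -0.75, -0.78 and -0.52. The within-slide differences were -0.83 and -0.72, the latter with a limma adjusted p of 0.0596. With spike-in scaling the difference was -0.34 and not called (limma adjusted p = 0.511; range over all alternatives 0.00384 to 0.511). *SPL10* and *SPL11* are similar in sequence, and a probe for one may also bind some transcript of the other.

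*SPL13B* (AT5G50670, chromosome 5) and *SPL13A* are copies of one another on the same chromosome, with 10 protein-coding genes between them. Since the copies are nearly identical, the signal assigned to *SPL13B* may come from either. It was 0.048, 0.25 and 0.43 in the wild type and -0.013, 0.14 and 0.26 in *pgp1-2*, and the groups overlapped. The log2 difference of -0.11 was not called (95% interval -0.41 to 0.18, limma adjusted p = 0.468), nor was that of the second probe, -0.23.

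**Figure D2:**
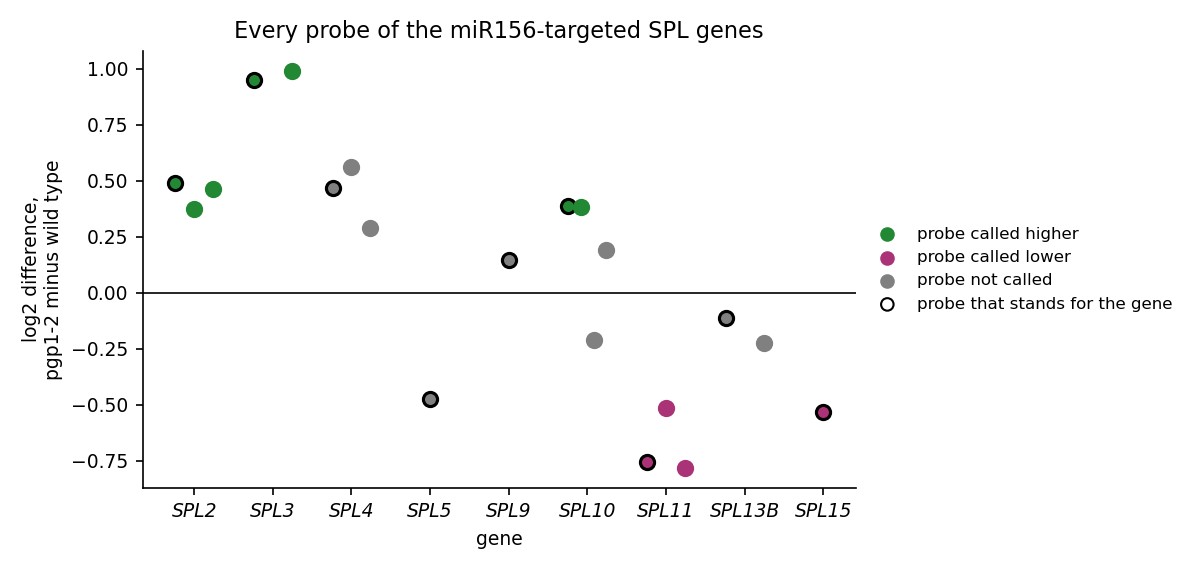
Log2 difference, *pgp1-2* minus wild type (vertical axis), of each of the 20 probes of the miR156-targeted *SPL* genes (horizontal axis), coloured by whether the probe was called in limma; a black ring marks the brightest probe, which stands for the gene. Probes of one gene agree in sign except in *SPL10*, where 1 of 4 is at -0.21.

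Of the 20 probes tested one by one, 7 were called higher and 4 lower, where 25.8% of all 30434 probes kept were called higher and 24.4% lower. The 5 members called by their brightest probe kept their direction under all 17 alternatives with a test, although none of them was called under all 17. The signs of *SPL9* and *SPL13B*, which were not called, were not settled: *SPL9* was at -0.0058 under normexp and 0.56 with spike-in scaling, and *SPL13B* was at -0.082 and 0.30.

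Of the closely related members, *SPL10* was called higher and *SPL11* lower. The main values of *SPL4* and *SPL5*, and of *SPL9* and *SPL15*, also had opposite signs, but *SPL4*, *SPL5* and *SPL9* were not called, while *SPL3* and *SPL4* shared a sign. The 3 pairs of opposite sign were picked for it after their values were seen, so their within-array differences are given as a description, with no test. Subtracting one gene's log2 signal from the other's on the same array removes the scaling between arrays. *SPL10* minus *SPL11* was 0.44, 0.25 and 0.55 in the wild type and 1.56, 1.71 and 1.39 in *pgp1-2*. The wild-type mean was 0.41 ± 0.15 and the mutant mean 1.55 ± 0.16 (SD, n = 3), a shift of 1.14 in favour of *SPL10*. This shift rests on the brightest probe of each gene. With probe means the differences between groups were 0.19 for *SPL10*, not called, and -0.68 for *SPL11* (limma adjusted p = 0.0696 and 0.0107). *SPL4* minus *SPL5* went from 2.05 ± 0.19 to 2.99 ± 0.24, a shift of 0.94, and *SPL9* minus *SPL15* from 2.23 ± 0.14 to 2.90 ± 0.37, a shift of 0.68.

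**Figure D3:**
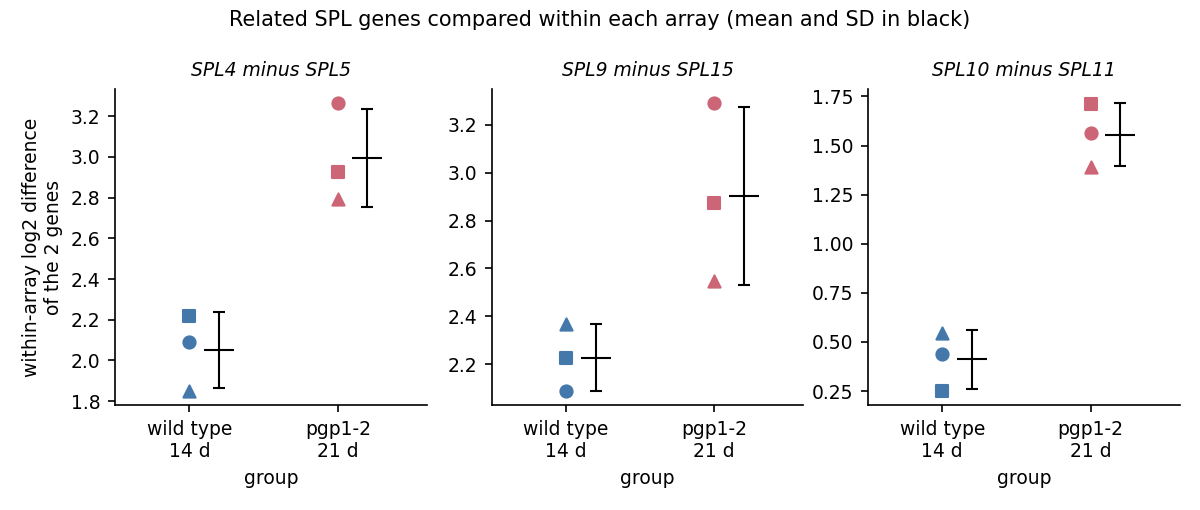
Within-array log2 difference between the 2 genes of each related pair (vertical axes, each with its own range) on the 3 wild-type arrays (blue) and the 3 *pgp1-2* arrays (red), marker shapes standing for replicates as in the plot of all members, with the mean and SD in black beside the points. The pairs were picked for opposite signs, and each gene is shown by its brightest probe. Mutant arrays lie above wild-type arrays, by the widest margin for *SPL10* minus *SPL11*, at 1.39 to 1.71 against 0.25 to 0.55.

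The *SPL* family has further members, most of them without a miR156 site. Of 7 listed, 6 were tested, 0 were called higher by limma and 2 lower, where 27.9% and 24.5% of all genes were, with a median log2 difference of -0.18. *SPL6* (AT1G69170), which does carry a miR156 site, lay at -2.80, -2.80 and -2.77 in the wild type and -2.93, -2.89 and -2.93 in *pgp1-2*. The groups did not overlap, yet its log2 difference of -0.13 was not called (limma adjusted p = 0.102). *SPL1* and *SPL12*, large proteins linked to heat tolerance of the inflorescence, were called lower by 0.36 and 0.23 on the log2 scale (limma adjusted p = 0.00978 and 0.0411), but with spike-in scaling both were above 0, at 0.056 and 0.19. *SPL12* was called under only 4 of 17 alternatives.

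*SPL8*, a regulator of anther development, varied most. It gave -1.79, -1.68 and -1.44 in the wild type and -2.18, -3.62 and -2.38 in *pgp1-2*, and its difference of -1.09 was not called (limma adjusted p = 0.0513), although 6 of 17 alternatives called it. Again replicate 2 of the mutant stood apart, here as the lowest array, and without it the difference was -0.64 and called (limma adjusted p = 0.0158). The within-slide differences were -0.39 and -1.44, and the adjusted p over all alternatives ranged from 0.0158 to 0.197. *SPL7*, the regulator of copper homeostasis, and *SPL14* both had a log2 difference of 0.027 and were not called.

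**Figure D4:**
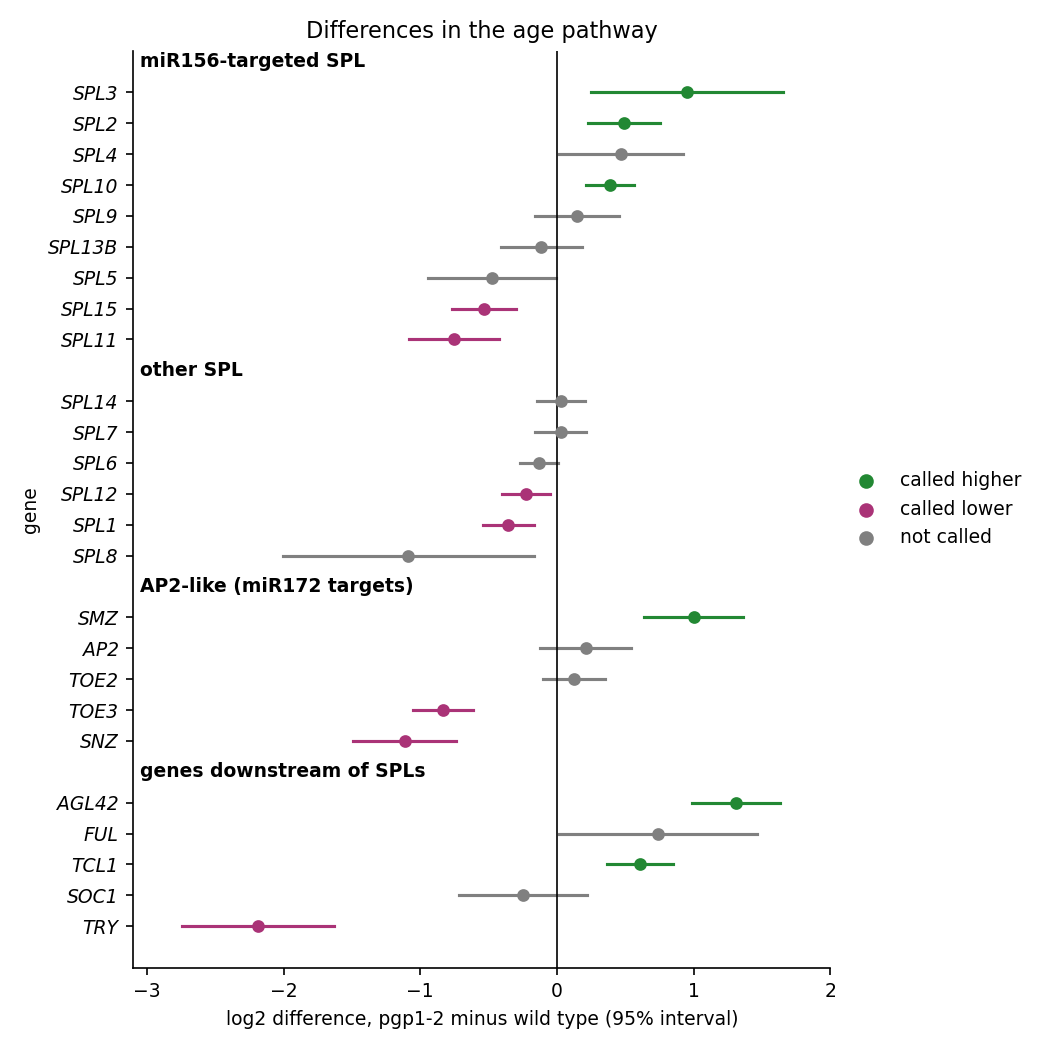
Log2 difference, *pgp1-2* minus wild type, with its 95% interval from limma (horizontal axis) for the genes tested in each list (vertical axis), coloured by call. The miR156-targeted *SPL* genes lie between -0.75 and 0.95, and *TRY*, downstream of SPL9, at -2.19 has the lowest value of the 4 lists shown.

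Genes downstream of the SPL proteins were followed through a list of 10. Of these, 5 were tested, 2 of them called higher and 1 lower, a share near the 52.4% called over all genes. *TRY* (AT5G53200), a MYB repressor of trichomes that SPL9 activates, was at -2.81, -3.03 and -2.92 in the wild type and -5.08, -5.58 and -4.65 in *pgp1-2*. The groups were far apart. *TRY* fell by 2.19 on the log2 scale, 4.55-fold (limma adjusted p = 0.000736), and was called under all 17 alternatives with a test. *TCL1* (AT2G30432), another SPL9-activated trichome repressor, rose instead. It gave -2.76, -2.85 and -2.99 in the wild type and -2.25, -2.40 and -2.13 in *pgp1-2*, without overlap, a rise of 0.61 on the log2 scale (limma adjusted p = 0.00347), and it was not called under normexp.

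Of the MADS-box genes downstream, 3 were tested and 1 was called. *AGL42* (AT5G62165) gave -4.86, -5.00 and -4.54 in the wild type and -3.37, -3.53 and -3.57 in *pgp1-2*. All mutant arrays were higher, and the rise was 1.31 on the log2 scale, 2.48-fold (limma adjusted p = 0.000678). Under normexp it was 0.33 and not called (limma adjusted p = 0.582; over all alternatives from 2.49e-06 to 0.582). *SOC1*, a flowering integrator and direct SPL9 target, gave 0.98, 1.15 and 1.20 against 0.92, 0.46 and 1.20, with overlap and no call (log2 difference -0.25, limma adjusted p = 0.314). *FUL*, a target of SPL3 and SPL9, gave -2.21, -1.50 and -1.82 against -0.81, -1.70 and -0.80. Replicate 2 of the mutant was at the wild-type level here too, and the difference of 0.74 was not called (limma adjusted p = 0.0805).

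The floral meristem gene *AP1* was well above background on 1 array, *pgp1-2* replicate 1, and did not pass the filter. *AGL71* passed on no array. *LFY*, *AGL72* and *FD* also gave no tested value. The spot of *LFY* on *pgp1-2* replicate 2 and that of *FD* on wild-type replicate 2 carried outlier flags and were removed.

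The AP2-like repressors of flowering form the next step of the pathway, since miR172 restrains them. Of 6 listed, 5 were tested, with 1 called higher and 2 lower, again near the 52.4% called over all genes. *SNZ* (AT2G39250) gave 0.11, 0.037 and 0.16 in the wild type and -1.35, -0.77 and -0.91 in *pgp1-2*. It fell by 1.11 on the log2 scale, 2.16-fold (limma adjusted p = 0.00194), and its second probe fell as well. By locus number *SNZ* lies close to *PGP1* (AT2G39290), the gene mutated in *pgp1-2*, on chromosome 2. A local effect of the mutation on *SNZ* was not tested. *TOE3* (AT5G67180) fell by 0.84 on that scale (limma adjusted p = 0.000809). *SMZ* (AT3G54990), the closest relative of *SNZ*, rose instead: it gave -4.04, -4.22 and -4.10 in the wild type and -3.30, -2.79 and -3.27 in *pgp1-2*, a log2 difference of 1.00 (limma adjusted p = 0.00257). *AP2* and *TOE2* were not called, at 0.21 and 0.12. With spike-in scaling neither *SNZ* (-0.70) nor *TOE3* (-0.42) was called, and *SMZ* was not called under normexp (0.38).

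The microRNAs themselves are not analysed here: none of the 17 *MIR156*, *MIR157* and *MIR172* genes looked for was matched by a probe. Of 8 genes for making and using microRNAs, all were tested, 4 were called higher and 0 lower, beside 27.9% and 24.5% of all genes; the list's median log2 difference was 0.22. *DCL1*, the nuclease that cuts microRNAs from their precursors, gave 0.49, 0.50 and 0.42 in the wild type and 1.17, 1.05 and 1.13 in *pgp1-2*. It rose by 0.65 on the log2 scale (limma adjusted p = 0.000645). *HST*, an exportin-like protein first known for its effect on phase change, rose by 0.61 (limma adjusted p = 0.00343), and *DCL1* and *HST* were called under all 17 alternatives with a test. *AGO7* rose by 0.40 and *AGO1*, the protein that uses miR156, by 0.34 (limma adjusted p = 0.0180 and 0.00429). The call was lost under 5 of 17 alternatives for *AGO7* and under 2 for *AGO1*. Without *MIR* probes these values say nothing of miR156 abundance.

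Transcripts that mark organs differed between the groups. Of the shoot apex markers, *STM* was called higher in *pgp1-2* by a log2 difference of 1.18 and *KNAT1* by 1.79 (limma adjusted p = 0.000920 and 0.000403), both under all 17 alternatives with a test. *CLV3* passed the filter only through *pgp1-2*, since it was well above background on 1 wild-type array and on all 3 mutant arrays. Its own difference is therefore not read as a result. The signals of the 4 apex markers, *CLV3* included, were also summed, as multiples of the array's 75th percentile. The summed signal was 0.333 to 0.401 in the wild type and 0.851 to 1.11 in *pgp1-2*, with *WUS* above background on no array. Of 3 leaf primordium markers 2 were called higher, where 27.9% of all genes were. These were *AS2* at 0.69 and *GIF1* at 0.66 (limma adjusted p = 0.00467 and 0.0109), while *AS1* was at -0.10 and not called (limma adjusted p = 0.572). Under normexp *AS2* was at 0.13 and not called (limma adjusted p = 0.733). The list's summed signal was 1.61 to 1.71 in the wild type and 1.77 to 2.35 in *pgp1-2*.

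Green leaf markers went the other way. The 3 markers were all called lower, where 24.5% of all genes were. Log2 differences were -0.43 for *RBCS1A*, -0.84 for *LHCB1.3* and -0.69 for *PSBO1* (limma adjusted p = 0.00527, 0.00141 and 0.00316). With probe means they were -0.78, -1.67 and -1.13, all called (limma adjusted p = 0.00152, 0.000562 and 0.000692). The summed signal of the 3 was 562 to 593 in the wild type and 336 to 417 in *pgp1-2*. With spike-in scaling none of the 3 was called by limma, at -0.018 for *RBCS1A*, -0.43 for *LHCB1.3* and -0.27 for *PSBO1* (limma adjusted p = 0.975, 0.410 and 0.600), and under quantile normalization *RBCS1A* was at 0.023. Root markers were faint: *PLT1* and *PLT2* were well above background on no array, and 1 of 5 markers was tested. That one, *COBL9*, passed only through *pgp1-2*, with 2 wild-type arrays well above background, and its call as higher was lost under 8 of 16 alternatives. Of the untested markers, *EXPA7* went the other way, well above background on 2 wild-type arrays and on 0 mutant arrays. *RHD6* was well above background on 1 array of each group, and its signal was lower on all 3 mutant arrays. The summed signal of the 5 root markers was 0.0373 to 0.0759 in the wild type and 0.0580 to 0.104 in *pgp1-2*. In *pgp1-2* this sum came mostly from *COBL9*. Of 6 floral organ markers 2 were tested. *SEP3* was called higher by a log2 difference of 2.36 (limma adjusted p = 0.00263), as were 27.9% of all genes in that direction. *PI*, the other marker tested, was at 0.055 and not called (limma adjusted p = 0.948). Of the untested floral markers, *AG* was well above background on 2 mutant arrays and on 0 wild-type arrays. *AP3* was so on 2 mutant arrays and 1 wild-type array, *SEP1* on 2 of each group and *SEP2* on 1 of each. The signals of *AG* and *SEP2* were higher on all 3 mutant arrays, while for *AP3* and *SEP1* the groups overlapped. The summed signal of the 6, with *SEP3* and *PI* among them, was 0.138 to 0.236 in the wild type and 0.259 to 0.667 in *pgp1-2*. The part of organ makeup in the *SPL* differences was not tested, and in whole seedlings fewer cells of a type and less RNA per cell cannot be told apart.

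**Figure D5:**
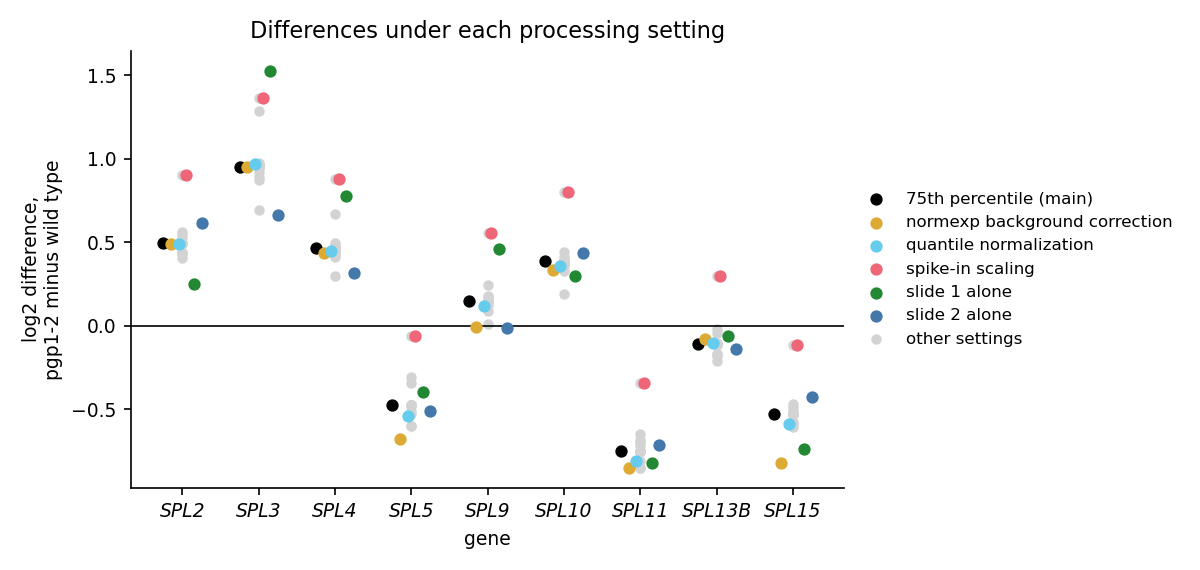
Log2 difference, *pgp1-2* minus wild type (vertical axis), of each miR156-targeted *SPL* gene (horizontal axis) under every processing setting: the main scaling in black, other scalings and single slides in colour, remaining settings in grey. *SPL2*, *SPL3* and *SPL10* stay above 0 and *SPL11* and *SPL15* below it throughout, while *SPL9* and *SPL13B* cross it.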

How the data were processed

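RNA of 6 seedling samples was measured on 1-colour arrays. Per the file headers, the authors read the scans with Agilent Feature Extraction, version 10.7.1.1. The deposited processed signal is a linear-scale intensity after subtraction of background and a spatial trend; no scaling between arrays is recorded there. Other deposited columns hold raw median intensities and flags of 0 or 1 (another unit), per the file headers.

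Values are log2 of the processed signal minus the array's 75th percentile of it over non-control spots. Spots with outlier flags were removed, which left out 197 probes; no spot was saturated. A probe was kept if well above background on all 3 arrays of either group, and each gene took the value of its brightest kept probe. Accessions were named through the TAIR10.1 gene table (34358 of 43603 probes); its build differs from that of the headers, so no coordinates are given. Groups were compared with limma 3.58.1 in R 4.3.3 (lmFit, eBayes, two-sided, Benjamini-Hochberg over 22681 genes, threshold 0.05), tested on simulated data. For a probe well above background in no array of a group, an at-least fold was taken against the lowest signal well above background. Levels of different probes were not read as relative amounts of their transcripts. Those of related pairs were subtracted within each array, and those of marker lists were summed, to set the groups side by side. The number of arrays limits the precision.

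Alternatives were normexp (offset 50, on median intensities, as the files used hold no mean signal), other scalings, filters, slide and replicate blocks, single slides, probe means and leaving out each array. Named genes were all members, *PGP1*, the tested genes of the other *SPL*, AP2-like and downstream lists, and up to 3 called genes of other lists; *AGO1*, *AGL15*, *HXK1*, marker genes, genes whose sign changed and the related pairs were added after their values were seen. Members and lists were chosen with earlier results of these data known. Deviations of same-numbered arrays correlated at 0.081, 0.12 and 0.059, so numbers were not taken to pair samples.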

Additional observations from a re-analysis of the deposited data

How the results depend on the processing

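Of 3 members called higher and 2 lower, the counts were 2 and 1 under normexp, 1 and 0 with spike-in scaling, and 2 and 0 on slide 2 alone; the cause was not tested. Adding the slide as a block to spike-in scaling gave 5 and 0, the 5 including *SPL4* and *SPL9* beside the 3 of the main setting (limma adjusted p = 0.00177 and 0.0333). Leaving out 1 array gave 2 to 4 higher and 2 lower. With the replicate number as a block, 2 were called higher and 3 lower: *SPL3* lost its call (limma adjusted p = 0.0503) and *SPL5* gained one (0.0104). The number of genes called, 11884, was 6703 under normexp, 4609 with spike-in scaling and 6911 on slide 2, where fewer arrays entered, and 9581 to 11097 without 1 array; it was 11015 with the replicate block. Among called genes named, signs changed with spike-in scaling, whether or not slide was blocked, for *SPL1* (0.056), *SPL12* (0.19), *VAL2* (0.13) and *GAI* (0.10), whose main values lay between -0.41 and 0; that scaling adds 0.41 to every gene. Of named genes not called, *SPL6* (0.28), *SPL13B* (0.30), *SOC1* (0.16), *AGL15* (0.18) and *AS1* (0.31) also changed sign and lay above 0 there. *CLV3* was at -0.40 under normexp, *RBCS1A* at 0.023 under quantile normalization, and *PI*, not called in the main test, at -1.02 and called on slide 2. Within slide 1, with 1 array per group, *PI* was at 2.21.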

Other observations

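Regulators upstream of miR156 were also measured. Of 12 listed, 11 were tested, 2 were called higher and 1 lower, beside 52.4% of all genes called. *AGL18*, a MADS-box gene that acts with *AGL15* in promoting *MIR156* expression, rose by a log2 difference of 0.38 (limma adjusted p = 0.00581), while *AGL15* was at -0.23 and not called (limma adjusted p = 0.301). *CLF*, a Polycomb methyltransferase, rose by 0.24 (limma adjusted p = 0.0290), and this call was lost under 12 of 17 alternatives. *VAL2*, a B3-domain repressor, fell by 0.28 (limma adjusted p = 0.00905). *HXK1*, the glucose sensor through which sugar lowers *MIR156* transcripts, was at 0.071 with a 95% interval of -0.19 to 0.33 (limma adjusted p = 0.603).

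DELLA proteins, growth repressors that bind SPL9, had 0 genes called higher by limma and 2 lower of 5 tested, where 27.9% and 24.5% of all genes were. *RGL2* (AT3G03450) gave -1.45, -1.22 and -1.43 in the wild type and -2.94, -2.06 and -2.67 in *pgp1-2*. It fell by 1.19 on the log2 scale (limma adjusted p = 0.00620). *GAI* fell by 0.31 (limma adjusted p = 0.0237), a call kept under 7 of 17 alternatives.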
